A study of Homo sapiens with 2 samples.

Results

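The genes described here are 7 members of the PARP family of ADP-ribosyltransferases (PARP1, PARP2, PARP4, PARP9, PARP10, PARP12 and PARP14) and DTX3L, the ubiquitin ligase that works as a partner of PARP9. Members were chosen by gene symbol. All 15 probe sets that the platform annotation assigns to one of these 8 symbols alone were used, of 54675 probe sets and 19775 genes in all. The members were divided by what is known of their regulation into 5 interferon-inducible genes (PARP9, PARP10, PARP12, PARP14 and DTX3L, with 10 probe sets) and 3 others (PARP1, PARP2 and PARP4, with 5 probe sets). RKO, a line established from a human colon carcinoma, was measured on 2 arrays. The first held RNA of cells infected with a retrovirus carrying a hairpin against BCLAF1-L, the long form of a nuclear protein involved in transcription and splicing. The other held RNA of cells infected with a retrovirus carrying a luciferase hairpin (sh-Luci). Both cultures were selected with puromycin (2 µg/ml) for 72 to 96 h, and each is called by its hairpin below. A single hairpin against BCLAF1-L was measured, so effects of lower BCLAF1 and other effects of that hairpin cannot be told apart.

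PARP proteins take NAD apart and attach its ADP-ribose part to proteins, either as single units or as chains. PARP1 and PARP2 make chains at broken DNA, where these recruit repair factors, and PARP4 is a component of the cytoplasmic vault particle. PARP10, PARP12 and PARP14 attach single units. PARP9 has macrodomains, which bind ADP-ribose, and forms a complex with DTX3L. Transcription of PARP9, PARP10, PARP12, PARP14 and DTX3L is raised by interferon in many cell types, through transcription factors that bind the interferon-stimulated response element (ISRE) and the gamma-activated site (GAS).

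The sequences around the transcription starts are shown because the ISRE is the element through which the inducible members are known to respond. RefSeq promoter windows (build GRCh38.p14, 250 bases before to 50 bases after each start) matched 6 of the 8 members by symbol. PARP4 and PARP10 were not matched. For each start, the 60 bases before it and the 20 bases from it are printed 5′ to 3′ on the gene's own strand. Capitals mark the ISRE-like core, searched as GAAANNGAAA on both strands, so that it can also read TTTCNNTTTC.
DTX3L, chr3:122564278-122564357, plus strand: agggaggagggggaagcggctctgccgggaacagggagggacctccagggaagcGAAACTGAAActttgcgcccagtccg
PARP9, chr3:122564281-122564360, minus strand: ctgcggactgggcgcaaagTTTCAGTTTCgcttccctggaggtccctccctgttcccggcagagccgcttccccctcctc
PARP14, chr3:122680779-122680858, plus strand: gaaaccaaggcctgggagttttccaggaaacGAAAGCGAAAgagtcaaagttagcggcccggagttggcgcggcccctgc
PARP12, chr7:140062932-140063011, minus strand: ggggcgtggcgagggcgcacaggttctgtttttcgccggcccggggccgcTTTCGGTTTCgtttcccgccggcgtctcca
PARP1, chr1:226408074-226408153, minus strand: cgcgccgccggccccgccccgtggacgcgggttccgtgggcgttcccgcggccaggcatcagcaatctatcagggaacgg
PARP2, chr14:20343575-20343654, plus strand: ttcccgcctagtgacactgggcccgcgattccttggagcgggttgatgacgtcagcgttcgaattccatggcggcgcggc

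DTX3L and PARP9 run in opposite directions from neighbouring starts with 37 bases between them, so the 2 printed stretches share 77 bases and the capitals in both mark the same letters. This shared core lay at -6 to 4 from the DTX3L start and at -41 to -32 from the PARP9 start. The core lay at -29 to -20 in PARP14 and at -10 to -1 in PARP12. RefSeq lists a further PARP9 start, whose window held no core. Neither PARP1 nor PARP2 held the core anywhere in the 300-base window. Across all 35116 windows of this length, 3.57% held it. Of the other PARP genes, 9 had a window and 0 of these held it. The GAS-like core, searched as TTCNNNGAA on both strands, was present in 7.66% of all windows. Among the members with a window used here, it was found in PARP14 (at -40 to -32, not overlapping the ISRE-like core) and in PARP2 (at -154 to -146). A match describes letters in a window and shows no binding.

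BCLAF1 itself was lower after the knockdown on its 6 probe sets, and its brightest one read 945 on the sh-BCLAF1-L array against 2505 on the sh-Luci array. Median intensities of the arrays were 84.5 for sh-BCLAF1-L and 82.7 for sh-Luci. All differences below are log2(intensity + 1) on the sh-BCLAF1-L array minus that on the sh-Luci array. A gene took the value of its brightest probe set, and a gene or probe set was called detected when its mean over both arrays reached an intensity of 63.7, the 40th percentile of all probe sets. This cut is a brightness rank, and passing it does not by itself show that a gene is expressed. Over the 14507 detected genes the median difference was 0.019, and the central 95% lay between -0.31 and 0.37. Detected probe sets of the same gene differed with a pooled SD of 0.16, which covers neither cultures, infections nor arrays. Each group had 1 array, so no p-value was computed and every difference lacks a replicate check. The 18 probe sets of the biotin-labelled spike-ins were higher on the sh-BCLAF1-L array, by a median of 0.20, whereas the 27 probe sets of the poly-A controls had a median difference of -0.035. Signal at the 3′ end of ACTB, relative to its 5′ probe set, was 3.81 on the sh-BCLAF1-L array and 3.41 on the sh-Luci array. The part of these array differences in the values below was not tested. In cultures measured in bulk, fewer cells expressing a gene and less RNA per cell cannot be told apart. Of 5 epithelial markers 3 were detected. EPCAM read 472 in sh-BCLAF1-L cells and 477 in sh-Luci cells, KRT18 read 674 in sh-BCLAF1-L cells and 979 in sh-Luci cells (difference -0.54), and KRT8 differed by 0.02, whereas CDH1 and KRT19 were below detection. Of 4 blood cell markers CD3E and HBB were detected, and PTPRC and CD14 were not.

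All 8 members were detected, and the differences between the arrays were small. The 5 interferon-inducible members had a median difference of -0.21, against 0.08 for PARP1, PARP2 and PARP4. The gap between these medians was -0.29 on the log2 scale. Of the inducible members 4 were lower in sh-BCLAF1-L cells and 1, PARP9, was higher, while with the median over the probe sets of a gene PARP9 differed by -0.17 and all 5 were lower. Of the 3 other members 1, PARP1, was lower. A difference below 0 was found in 45.0% of all detected genes. PARP10 was the only member at least 20% lower (a log2 difference of -0.32 or below), a size reached by 2.21% of detected genes, and no member was 1.5-fold lower, as 0.2% of detected genes were. No member was at least 25% higher, against 4.16% of detected genes.

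**Figure D1:**
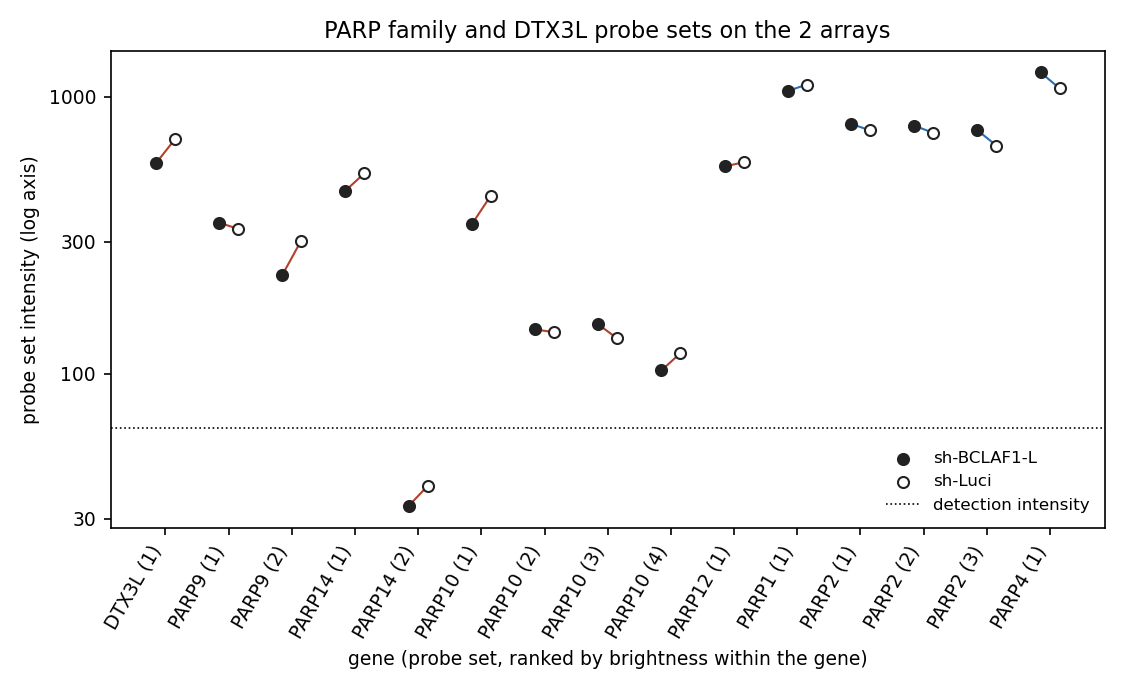
Intensity of each of the 15 probe sets (log axis) on the sh-BCLAF1-L array (filled) and the sh-Luci array (open), with the probe sets of a gene numbered from brightest to dimmest. Red lines join the values of interferon-inducible members and blue lines those of PARP1, PARP2 and PARP4; only the dimmer PARP14 probe set lies under the detection intensity of 63.7.

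DTX3L, a ubiquitin ligase of the Deltex family, had 1 probe set, which read 575 on the sh-BCLAF1-L array against 702 on the sh-Luci array. This is a difference of -0.29, or 1.22-fold lower, and 3.21% of detected genes differed by as much or more in that direction. Among the 4298 detected genes whose brightest probe set was as bright as those of the members (intensities of 343 to 1146), that share was 2.47%.

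PARP9, which shares its start region with DTX3L, gave opposite readings on its 2 probe sets. The brighter probe set read 351 in sh-BCLAF1-L cells against 334 in sh-Luci cells, a difference of 0.07. The other read 227 in sh-BCLAF1-L cells against 303 in sh-Luci cells, a difference of -0.41 or 1.33-fold lower. These differences lay 0.48 apart. Among 3691 genes with 2 detected probe sets the median distance was 0.13, and 3.66% of them had one as wide as that of PARP9. No source used here says which PARP9 transcripts either probe set reads, so whether PARP9 mRNA as a whole was lower along with DTX3L cannot be read from these values.

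PARP14, a large macrodomain protein that attaches single ADP-ribose units, read 458 in sh-BCLAF1-L cells against 530 in sh-Luci cells on its detected probe set. The difference was -0.21, or 1.16-fold lower, and 7.65% of detected genes were as low or lower. Its dimmer probe set, below detection on both arrays, read 33.4 in sh-BCLAF1-L cells against 39.5 in sh-Luci cells, a difference of -0.23. PARP14 was thus the only inducible member with several probe sets that were all lower.

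PARP10, which also attaches single units, had the lowest value of the members on its brightest probe set, but its 4 probe sets were divided. The brightest read 347 in sh-BCLAF1-L cells against 440 in sh-Luci cells (difference -0.34, 1.27-fold lower). The 3 dimmer ones read 145, 151 and 103 in sh-BCLAF1-L cells against 141, 134 and 119 in sh-Luci cells, with differences of 0.03, 0.17 and -0.20. Thus 2 of the 4 were lower and 2 higher. The range of 0.51 between them compares with a median range of 0.28 over 771 genes with 4 detected probe sets, of which 11.0% had a range as wide. The brightest probe set carries the _x_at suffix, which marks probes that can match other transcripts. Without _s_at and _x_at probe sets the PARP10 difference was 0.03, and with the median over its probe sets it was -0.09.

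PARP12, a zinc-finger member that attaches single units, differed little. Its only probe set read 561 in sh-BCLAF1-L cells against 580 in sh-Luci cells, a difference of -0.05, and 32.4% of detected genes were as low or lower. It thus lay nearer to PARP1 than to DTX3L. Its promoter window holds the ISRE-like core, and a link between the core and the difference of a single gene was not tested.

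**Figure D2:**
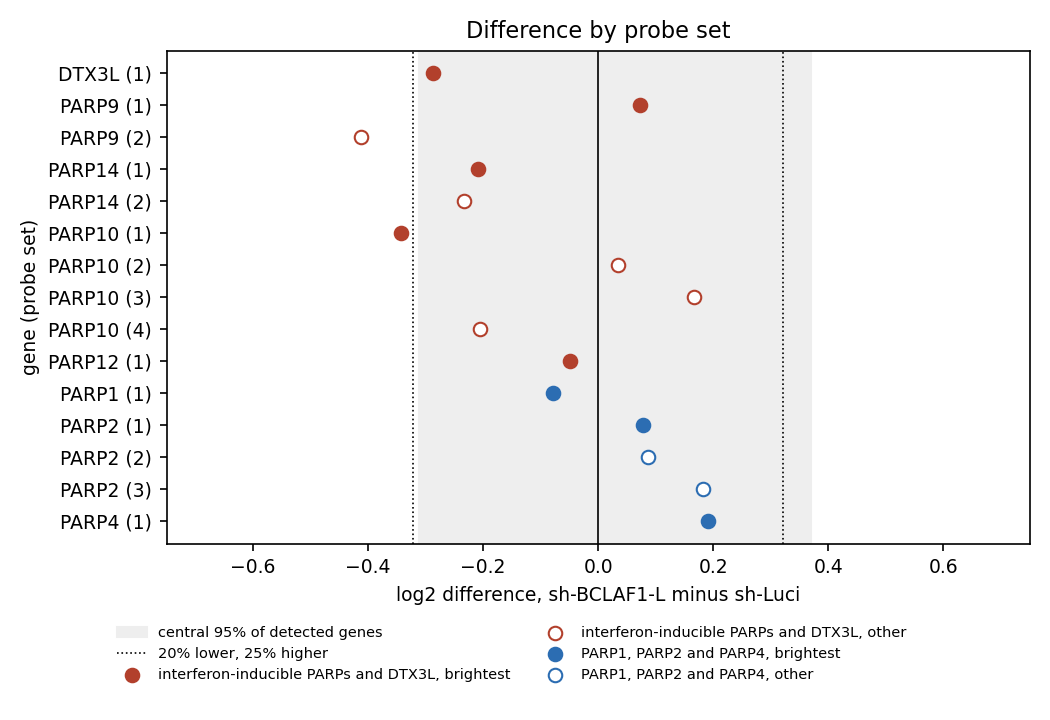
Log2 difference (sh-BCLAF1-L minus sh-Luci) of each probe set; filled points are the brightest probe set of a gene, open points the others, and the grey band is the central 95% of detected genes (-0.31 to 0.37). Only a PARP10 and a PARP9 probe set lie left of the dotted line that marks 20% lower, and both genes also have probe sets right of 0.

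Of the 3 members not grouped as interferon-inducible, PARP1, the main enzyme of chain formation at DNA breaks, read 1049 in sh-BCLAF1-L cells against 1107 in sh-Luci cells (difference -0.08). PARP2, the closest relative of PARP1 in function, was higher on each of its 3 probe sets. They read 799, 787 and 757 in sh-BCLAF1-L cells against 757, 741 and 667 in sh-Luci cells, with differences of 0.08, 0.09 and 0.18. The PARP2 probe sets thus lay within 0.10 of each other, closer together than in 85.6% of genes with 3 detected probe sets. PARP4 read 1224 in sh-BCLAF1-L cells against 1072 in sh-Luci cells, a difference of 0.19, and 13.6% of detected genes were as high or higher.

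Counted by probe set, 6 of the 9 detected probe sets of the inducible members were lower in sh-BCLAF1-L cells, against 1 of 5 for PARP1, PARP2 and PARP4. Among all 26452 detected probe sets 46.1% were lower. The medians over these probe sets were -0.20 for the inducible members and 0.09 for the others. The 3 lower probe sets of PARP9 and PARP10 and the 3 higher ones stand side by side in the plot of differences by probe set. The gap between the group medians shrank to -0.14 without _s_at and _x_at probe sets, which leaves 4 inducible members (median -0.09) and 2 others (median 0.06), since PARP12 and PARP2 have only such probe sets.

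**Figure D3:**
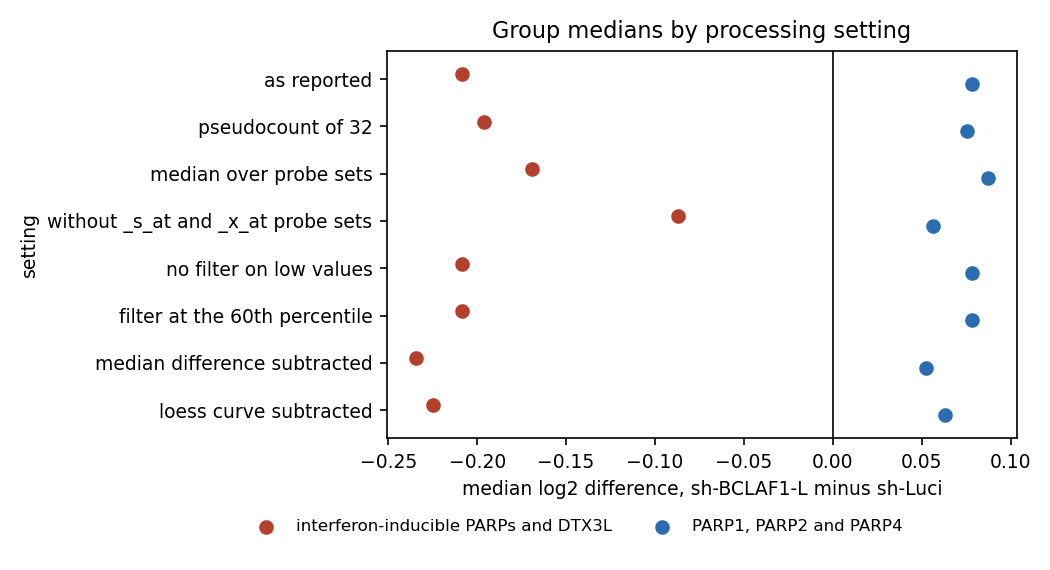
Median log2 difference (sh-BCLAF1-L minus sh-Luci) of the interferon-inducible members (red) and of PARP1, PARP2 and PARP4 (blue) under each processing setting. The red points lie between -0.23 and -0.09 and the blue points between 0.05 and 0.09.

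Among the remaining PARP genes no difference reached 20% lower or 25% higher. Of 10 listed, 9 were detected, 5 of these were lower and 4 higher, and their median was -0.03. The widest differences were -0.11 for PARP3, which acts at DNA breaks, 0.09 for the tankyrase TNKS2, 0.08 for PARP8 and -0.08 for TIPARP, which is induced by the aryl hydrocarbon receptor. PARP15 lies between DTX3L and PARP14 in the gene order of chromosome 3, and it was below detection on both arrays. ZC3HAV1, the antiviral zinc-finger protein also called PARP13, was chosen after its values were seen. Its brightest probe set read 1573 in sh-BCLAF1-L cells against 1571 in sh-Luci cells, while its other probe sets differed by -0.36 and -0.13. Of the other Deltex ligases 3 of 4 were higher and the median was 0.11. DTX3 differed by 0.55 on its brightest probe set, and its 4 dimmer probe sets differed by -0.15 to -0.24. DTX3 was the gene of this list past 25% higher. DTX1 and DTX4 differed by 0.12 and 0.10, and DTX2 by -0.10.

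Of 9 detected genes that remove or bind ADP-ribose, 1 was lower and 8 were higher in sh-BCLAF1-L cells, where 45.0% of all detected genes were lower. Their median was 0.08, against 0.019 over all detected genes, and no gene was 25% higher or 20% lower. PARG, which cuts ADP-ribose chains, read 489 in sh-BCLAF1-L cells against 427 in sh-Luci cells (difference 0.19). NUDT16 and NUDT5, hydrolases of the Nudix family, differed by 0.17 and 0.15, and the macrodomain protein MACROD2 by 0.10. The other NUDT5 probe set, also detected, went the other way, with 490 in sh-BCLAF1-L cells against 555 in sh-Luci cells (difference -0.18). Counted by probe set, 3 of the 16 detected ones of this list were lower. Of 8 detected repair partners of PARP1, 6 were higher, with a median of 0.04 and no gene past those sizes. Among them CHD1L, a chromatin remodeller activated by ADP-ribose chains, differed by 0.27 and was higher on all 5 of its probe sets. The flap endonuclease FEN1 differed by -0.18, HPF1, which directs PARP1 to serine, by 0.09 and the ligase LIG1 by 0.05. The NAD synthesis genes had a median of -0.02 over 9 detected genes, 5 lower and 4 higher. NMNAT3 differed by 0.50, NMNAT2 by -0.27, QPRT by 0.24 and NAMPT, the rate-limiting enzyme of the salvage route, by -0.07. The other NAMPT probe sets differed by 0.22, -0.02 and 0.14, so its direction is not settled. The NMNAT2 value comes from a dim probe set (69 in sh-BCLAF1-L cells, 83 in sh-Luci cells). Its undetected probe sets differed by 0.16, 0.84 and 0.22.

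The genes that carry the interferon signal had no common direction. Of 12 detected, 6 were lower and 6 higher, with a median of 0.02. At least 20% lower were 3 of the 12, against 2.21% of all detected genes. These 3, IRF9, USP18 and IRF7, are themselves known to be raised by interferon. On the same list SOCS1 differed by -0.03, and IRF1 by 0.15 on its brightest probe set and -0.19 on its other. IRF9, a transcription factor that binds the ISRE, read 407 in sh-BCLAF1-L cells against 555 in sh-Luci cells (difference -0.45). USP18, which removes the ISG15 modifier and restrains the receptor, read 176 in sh-BCLAF1-L cells against 260 in sh-Luci cells (difference -0.56), and IRF7 differed by -0.73. On its brightest probe set the receptor chain IFNAR2 differed by -0.24 and IFNAR1 by -0.09, while the kinases JAK1 and TYK2 differed by 0.11 and 0.12. The other detected probe sets differed by 0.07 and -0.21 for IFNAR2 and by -0.09, -0.09 and -0.49 for IFNAR1. Those of JAK1 differed by 0.14, 0.14 and -0.57, so the probe sets of IFNAR2 and JAK1 were divided.

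Set beside other interferon-induced families, the inducible PARP members had smaller differences. The medians were -0.49 for the 4 IFIT genes and -0.56 for the 6 OAS and MX genes, against -0.21 for the 5 inducible members. All 7 detected IFIT probe sets and all 11 OAS and MX probe sets were lower, against 6 of 9 here. The share among all detected probe sets was 46.1%. At least 1.5-fold lower were 2 of 4 IFIT genes and 2 of 6 OAS and MX genes, and 0 of the 5 inducible members. Only 0.2% of all detected genes reached that size, so a count of 0 among 5 genes is what that share gives. The ranges overlapped, since IFIT2 (-0.24), IFIT5 (-0.28), OASL (-0.14) and OAS2 (-0.01) lay within the range of the PARP members. With 1 array a group, these gaps were not tested.

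**Figure D4:**
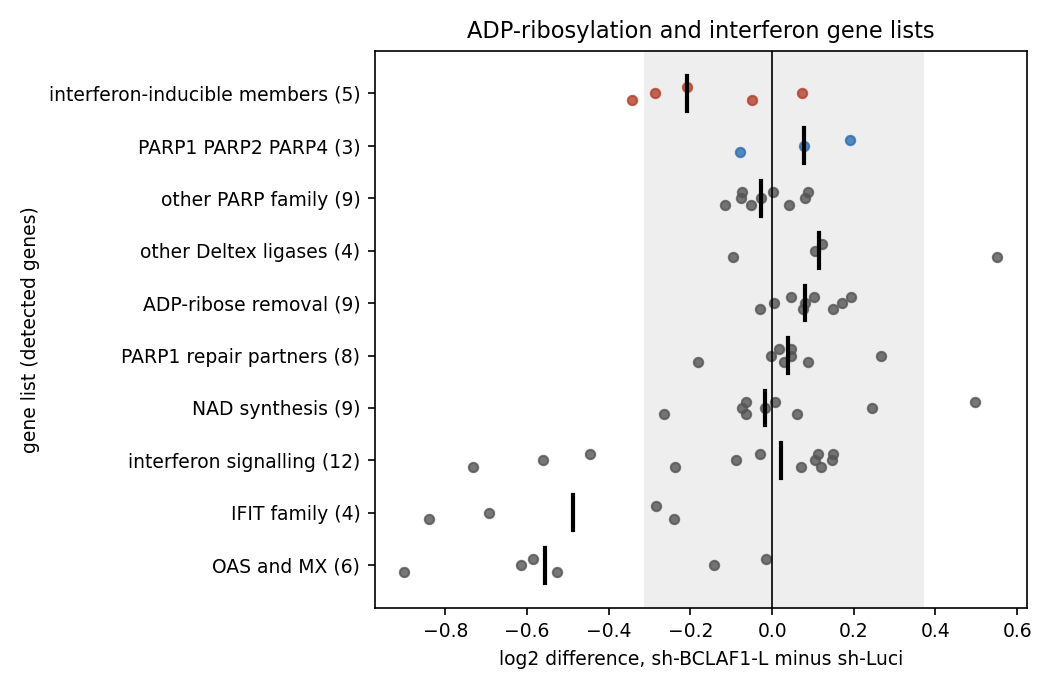
Log2 difference (sh-BCLAF1-L minus sh-Luci) of each detected gene by list, with the number of detected genes in parentheses, the list median as a black bar and the central 95% of detected genes in grey (-0.31 to 0.37). The IFIT and OAS and MX medians lie left of the grey band, the median of the inducible members lies inside it at -0.21, and the ADP-ribose removal list sits at 0.08.

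The ISRE-like core was then set against the differences of all detected genes with a promoter window. Among 434 genes with the core, 4.84% were at least 20% lower in sh-BCLAF1-L cells, against 2.06% of 11156 genes without it. At 1.5-fold lower the shares were 1.61% with the core and 0.134% without it. The 7 genes with the core past 1.5-fold were CCDC178, MX1, IFI44, IFIT3, IFIT1, IFIH1 and IFI6, 6 of which are known interferon-stimulated genes. MX1, IFIT3 and IFIT1 were already counted in the IFIT and OAS and MX lists above, so these shares are not separate from those counts. The medians nearly coincided, at -0.0057 with the core and 0.020 without it. The PARP9, DTX3L, PARP14 and PARP12 windows printed above belong to the genes with the core, and none of these 4 genes was among those 20% lower on its brightest probe set. The GAS-like core was set against the same differences. At least 20% lower were 3.43% of 992 genes with it and 2.05% of 10598 without it. At 1.5-fold lower the shares were 0.302% with the GAS-like core and 0.179% without it.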

How the data were processed

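The deposited table holds intensities on a linear scale. The submitters' processing notes name RMA, in its usual form a procedure of background correction, quantile normalisation and probe summary that gives log2 values. The program, version and final scaling are not stated in the sources used here, and why the values are linear with a lowest value of exactly 1 on both arrays is unknown. If arrays were normalised to each other, each difference is relative to the rest of the array, and background left in dim probe sets would compress folds. The array number limits the precision. Probe sets with 1 gene symbol (41097 of 54675) were used, with symbols updated through Entrez identifiers in RefSeq (GRCh38.p14). The analysis used log2(intensity + 1) in Python 3.11.15 with pandas 2.3.3. With 1 array a group no test was made. Differences of at least 20% lower, 25% higher and 1.5-fold were counted beside their share among all detected genes. Members and lists were chosen with earlier results of these data known. Named genes were every member, BCLAF1, IRF9 and up to 4 detected genes with the widest difference per list; other named genes were chosen after their values were seen. Other marker genes are given in the closing section.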

Additional observations from a re-analysis of the deposited data

How the results depend on the processing

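No paired analysis was possible because there was a single array per hairpin, which also left no replicate to omit. The alternatives were a pseudocount of 32, the median over probe sets, leaving out _s_at and _x_at probe sets, no filter, a filter at the 60th percentile, and subtraction of the median difference or of a loess curve (span 0.3). A value was counted as moved when it shifted by more than the SD of 0.16 between probe sets of a gene. Of 89 recomputed values 83 were not moved, a count that says little about robustness because many could not move. The brightest probe set of each member passed every filter, so changing the filter left every member value as it was. Genes with a single probe set keep their value under the median over probe sets. The gap between the group medians was counted as not moved even where it shrank to -0.14. PARP10 reversed to 0.034 without _s_at and _x_at probe sets. With the median over probe sets PARP10 was -0.085 and PARP9 changed sign to -0.17, so that all 5 inducible members were lower. The count of members at least 20% lower was 0 with those 2 settings and with the larger pseudocount, under which PARP10 was -0.317. The gap between the group medians ranged from -0.29 to -0.14. PARP12 and PARP2 could not be measured without _s_at and _x_at probe sets.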

Other observations

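Among the marker genes not yet described, the intestinal lectin LGALS4 read 143 in sh-BCLAF1-L cells and 186 in sh-Luci cells (difference -0.37), while CDX1 and CDX2, intestinal transcription factors, differed by 0.06 and 0.20. Of the listed markers, 2 of 4 blood, 2 of 3 endothelial and 4 of 4 fibroblast genes were detected, and none of these was 20% lower or 25% higher. Passing the detection cut does not show that these genes are expressed in RKO cells.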
